A study of Mus musculus with 6 samples.

Results

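The Ifi200 family is a set of related mouse genes that lie side by side on chromosome 1 and share this stretch with *Aim2*. The genes described here are *Ifi202b*, *Ifi203*, *Ifi204*, *Ifi205*, *Ifi207*, *Ifi208*, *Ifi209*, *Ifi213*, *Mndal* and *Aim2*. They were chosen by name, with earlier results of these data known, from the gene names of a table of raw read counts. All 10 names were found, on 9 of the 51499 loci of the table, because *Ifi203* and *Mndal* overlap and were counted as 1 locus. Their change was measured in MEFs, fibroblasts grown from mouse embryos, 72 h after acute knockdown of *Yme1l*, which encodes a protease of the inner mitochondrial membrane. WT MEFs were transfected with a control siRNA (Scr siRNA) or with Yme1l siRNA, and RNA from 3 independent cultures per group was analysed by RNA-Seq. The methods describe WT MEFs as clones of *Yme1l* loxP/loxP cells, but whether these libraries come from them was not settled, since the methods give SV40 large T antigen as the means of immortalization where the labels give 3T3. Whether 1 or several siRNAs were used against *Yme1l* is not given in the sources used here.

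Proteins of this family carry a HIN-200 domain, which binds DNA, and most of them carry a pyrin domain, with which they bind other pyrin-domain proteins. AIM2 binds double-stranded DNA in the cytosol and recruits the adaptor ASC, encoded by *Pycard*, which activates caspase-1, so that interleukins are matured and gasdermin D opens pores in the plasma membrane. Many Ifi200 genes are induced by type I interferon, whose signal reaches DNA through a complex that contains IRF9 and binds the interferon-stimulated response element (ISRE).

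Knockdown was measured first. *Yme1l1*, the gene of YME1L, had 170, 171 and 171 CPM (counts relative to the scaled library size) in the Scr siRNA cultures and 31.6, 23.4 and 45.0 CPM in the Yme1l siRNA cultures, with most left in library 3. The libraries held between 37260605 and 45205207 counts. Of 8 fibroblast markers tested, 6 were lower and 1 was higher after knockdown, against 29.6% lower and 28.4% higher of all loci tested. Of the 10 listed, 2, *Thy1* and *Lum*, were at or near 0. Of 10 myeloid markers, *Adgre1* and *Tyrobp* had 0 counts in all 6 libraries, and *Ptprc* and *Fcgr1* had at most 3 counts in any library. Of the 4 tested 1, *Csf1r*, was higher, with a mean of 123 CPM in the Scr siRNA group and 205 CPM after knockdown. *Cd68*, *Cd14* and *Lyz2*, with Scr siRNA means of 46.8, 28.5 and 1.34 CPM, were not called. The summed level of the list was between 193 and 208 CPM in the Scr siRNA group and between 273 and 286 CPM after knockdown. Lymphoid, endothelial and epithelial markers, each list on its own, summed to under 1 CPM in each library, and of the 1 tested 0 were called.

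Most of the family was higher after *Yme1l* knockdown, and among the tested members the largest fold changes were measured at 3 with low control levels. *Ifi208*, *Ifi207* and *Ifi209* rose by 4.03, 3.64 and 2.25 on the log2 scale, *Ifi203,Mndal* and *Ifi204* rose by 1.23 and 1.21, and *Ifi205*, *Ifi202b* and *Aim2* did not pass the test. In edgeR's quasi-likelihood test with Benjamini-Hochberg adjustment, 8 of the 9 loci were tested, since *Ifi213* had too few counts, and 5 of these 8 were called higher (62.5%), against 28.4% of all loci tested. The 5 called were all at least 2-fold higher, a size that 8.18% of all tested loci reached. None was called lower, by the adjusted or the unadjusted p (0 of 8), against 29.6% of all loci. The median log2 fold change of the 8 members was 1.22, and that of all tested loci was 0.01. In 4 of the 8, each Yme1l siRNA culture was above each Scr siRNA culture, an order seen at 31.9% of all loci. *Ifi208* is counted among the 5 called, among these 4 and in the median. It met the filter on low counts in all 3 libraries of a group only after knockdown, so its call is given no weight. In bulk RNA, more RNA per cell and a larger share of expressing cells cannot be told apart.

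**Figure D1:**
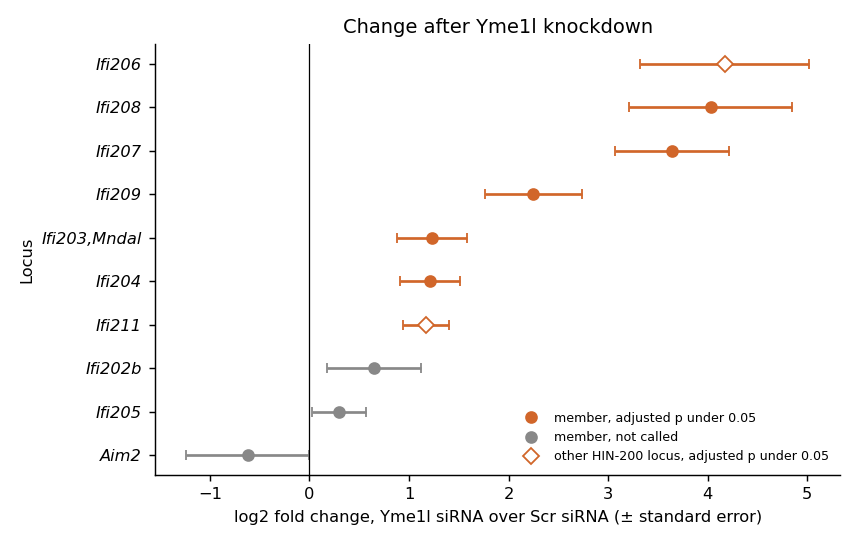
Log2 fold change of each tested locus of the family and of the other HIN-200 loci of the cluster, Yme1l siRNA over Scr siRNA, with bars of 1 standard error from edgeR's quasi-likelihood fit (3 cultures per group). *Ifi206*, *Ifi208* and *Ifi207* lie farthest to the right, *Ifi209* follows at 2.25, and *Aim2* is the only one below 0, at -0.62 with an error of 0.62.

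The promoters of the family were read next, because they show how alike these neighbouring genes are at their starts. RefSeq promoter sequences on GRCm38.p6, each from 250 bases before to 50 bases after an annotated start, matched 9 of the 10 names, all but *Ifi204*, with 11 promoters. They were searched on both strands for the core of the ISRE, taken as 2 copies of GAAA with any 2 bases between them. The core was found in 7 of the 11 promoters, which belong to 6 of the 9 genes, against 3.44% of 32851 promoters. Stretches of 60 bases around it are printed here in the direction of transcription, with the core in capitals. They lie at chr1:173673587-173673646 on the plus strand for *Ifi208*, and on the minus strand at chr1:173599306-173599365 for *Ifi213*, chr1:173741811-173741870 for *Ifi207*, chr1:174031850-174031909 for *Ifi205*, chr1:173942488-173942547 for *Ifi203* and chr1:173880184-173880243 for *Mndal*.
Ifi208: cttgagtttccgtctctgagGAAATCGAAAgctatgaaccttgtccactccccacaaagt
Ifi213: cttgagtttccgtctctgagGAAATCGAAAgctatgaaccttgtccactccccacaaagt
Ifi207: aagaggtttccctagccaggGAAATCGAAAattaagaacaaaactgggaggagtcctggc
Ifi205: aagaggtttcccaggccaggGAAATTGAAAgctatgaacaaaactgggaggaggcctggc
Ifi203: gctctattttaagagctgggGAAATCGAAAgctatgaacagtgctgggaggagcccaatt
Mndal: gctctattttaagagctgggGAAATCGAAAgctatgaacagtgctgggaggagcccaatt

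The stretches of *Ifi208* and *Ifi213* were identical at 60 of 60 bases, as were those of *Ifi203* and *Mndal*, so these matches are copies and not separate occurrences. *Ifi205* and *Ifi207* were alike at 53 of 60 bases. Of these 6 genes, *Ifi205* is the one whose core reads GAAATTGAAA and not GAAATCGAAA. Its core also starts 134 bases before the annotated start, whereas those of the other 5 start between 35 and 73 bases before it, and the promoter of *Ifi205* holds a second match on the other strand, 24 bases after the start. A second promoter of *Mndal* holds the match TTTCTCTTTC on its other strand. The 3 other HIN-200 genes of the cluster, *Ifi206*, *Ifi211* and *Ifi214*, hold a core as well, and the stretch of *Ifi206* is alike to that of *Ifi208* at 59 of 60 bases. *Ifi211*, whose RNA rose, has the same core letters as *Ifi205*, whose RNA was not called, and the stretches of the pair are alike at 55 of 60 bases.

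The other 3 genes with a promoter sequence, *Aim2*, *Ifi209* and *Ifi202b*, hold no exact core in this window, and they are printed whole because they include a member that rose and a pair that did not pass the test. Capitals mark matches to the core with 1 of its 8 fixed bases changed, on either strand, and, in *Ifi202b*, a match to the gamma-activated sequence (GAS, TTCNNNGAA). The windows are chr1:173420354-173420653 on the plus strand for *Aim2*, chr1:173630609-173630908 on the plus strand for *Ifi209* and chr1:173982795-173983094 on the minus strand for *Ifi202b*.
Aim2: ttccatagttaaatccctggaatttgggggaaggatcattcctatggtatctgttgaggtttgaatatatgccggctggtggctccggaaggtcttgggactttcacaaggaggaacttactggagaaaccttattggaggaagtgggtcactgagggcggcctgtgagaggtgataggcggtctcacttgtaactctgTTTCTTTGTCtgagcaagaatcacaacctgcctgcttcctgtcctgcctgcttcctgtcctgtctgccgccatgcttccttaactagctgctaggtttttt
Ifi209: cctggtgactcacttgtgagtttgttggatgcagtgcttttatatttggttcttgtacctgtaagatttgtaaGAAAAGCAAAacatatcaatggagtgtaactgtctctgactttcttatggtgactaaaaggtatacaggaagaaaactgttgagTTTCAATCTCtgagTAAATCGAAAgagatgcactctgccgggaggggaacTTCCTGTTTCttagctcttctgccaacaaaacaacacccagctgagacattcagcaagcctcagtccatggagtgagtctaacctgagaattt
Ifi202b: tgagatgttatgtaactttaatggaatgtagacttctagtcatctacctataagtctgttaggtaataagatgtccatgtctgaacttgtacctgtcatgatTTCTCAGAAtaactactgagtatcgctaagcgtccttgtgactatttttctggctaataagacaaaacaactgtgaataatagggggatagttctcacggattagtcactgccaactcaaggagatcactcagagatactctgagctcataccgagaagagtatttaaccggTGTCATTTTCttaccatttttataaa

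*Ifi209* holds 4 such matches, of which TAAATCGAAA starts 79 bases before the annotated start. *Aim2* holds 1 match, TTTCTTTGTC, 51 bases before the start, and *Ifi202b* holds 1, TGTCATTTTC, 25 bases after it. With 1 changed base allowed, a choice made after seeing the sequences, the core was found in 10 of the 11 promoters (9 of 9 genes), and in 35.4% of all promoters. The GAS letters were found in 1 of the 11 promoters, that of *Ifi202b*, against 8.3% of all promoters, and the letters GGGA, any base and TTTCC, as bound by NF-kB, were found in 0 of the 11, against 0.411%. A match is a description of the letters, not a binding site, and its absence from this window does not bear on the factor.

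*Ifi204* was the most abundant member per length of exon, and its protein, p204, is often treated as the mouse counterpart of human IFI16, a DNA sensor that signals through STING. It was measured at 58.8, 54.3 and 30.8 CPM in the Scr siRNA cultures and at 136, 128 and 67.8 CPM after *Yme1l* knockdown. The lowest knockdown culture was above the highest control culture, so the groups did not overlap. The mean went from 48.0 ± 15.0 to 111 ± 37.3 CPM (SD, n = 3), a log2 fold change of 1.21 with a standard error of 0.30 and an adjusted p of 0.00774 in edgeR's quasi-likelihood test. An exact two-sided permutation test over the 6 cultures gave p = 0.1 for *Ifi204*, which is the smallest it can give with 3 against 3. Of the 100-base words in *Ifi204* transcripts, 10.7% also occur in another gene, most of them in *Ifi211*, and how reads matching several places were counted is not given in the sources used here.

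*Ifi203,Mndal* showed a change close in size to that of *Ifi204*, and MNDAL has been described as an inhibitor of cell growth. It was measured at 23.3, 18.7 and 11.5 CPM in the Scr siRNA cultures and at 48.8, 55.3 and 21.6 CPM after knockdown. Library 3 of the Yme1l siRNA group lay between the controls, so the groups overlapped here. The log2 fold change of *Ifi203,Mndal* was 1.23 with a standard error of 0.35 (edgeR adjusted p = 0.0156), and the exact permutation p was 0.2. The call of this locus was lost without Scr siRNA library 3 (log2 fold change 0.99, edgeR adjusted p = 0.052), without Yme1l siRNA library 1 (1.11, adjusted p = 0.0504) and without Yme1l siRNA library 2 (0.99, adjusted p = 0.051). In GENCODE M21, *Mndal* spans chr1:173849126-173942491 on the minus strand, and *Ifi203*, *Ifi211* and *Gm38050* overlap it on the same strand, so the counts of *Ifi203* and *Mndal* cannot be told apart in this table.

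*Ifi205*, which holds a core in its promoter too, showed a smaller difference. It was measured at 14.4, 13.9 and 9.84 CPM in the Scr siRNA cultures and at 18.7, 19.2 and 9.11 CPM after knockdown, where library 3 was below every control. Its log2 fold change was 0.30 with a standard error of 0.27 (edgeR adjusted p = 0.367). Without Yme1l siRNA library 3, the difference was 0.57 and passed the test (edgeR adjusted p = 0.0127), and so it did without both libraries numbered 3, a setting chosen after seeing the data (0.41, adjusted p = 0.00371). Of the 100-base words of *Ifi205* transcripts, 15.0% are shared with *Ifi211*.

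The 3 tested members with low control levels and large changes were *Ifi207*, *Ifi208* and *Ifi209*, which lie within the same part of the cluster. *Ifi207* was measured at 2.52, 2.16 and 0.853 CPM in the Scr siRNA cultures and at 26.8, 34.4 and 7.76 CPM after knockdown. Every knockdown culture was above every control, and the lowest knockdown value was again in library 3. The mean of *Ifi207* went from 1.84 ± 0.876 to 23.0 ± 13.7 CPM (SD, n = 3), a fitted rise of 12.5-fold (log2 fold change 3.64, standard error 0.57, edgeR adjusted p = 0.00077). Only 0.79% of its 100-base words occur in another gene.

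*Ifi208* had 13, 13 and 3 counts in the Scr siRNA cultures and 234, 256 and 29 counts after knockdown. The groups did not overlap, and knockdown libraries 1 and 2 held many times the counts of library 3. In CPM these are 0.300, 0.360 and 0.0711 against 5.28, 5.89 and 0.688, with a log2 fold change of 4.03, a standard error of 0.82 and an adjusted p of 0.00315 in edgeR. The size of this change rests on few control counts. Control library 3, with 3 counts, was under the filter's minimum count of 10. The filter was met in all 3 libraries of a group only after knockdown, so the call of *Ifi208* is given no weight. *Ifi209* had 30, 24 and 16 counts in the controls and 149, 169 and 43 after knockdown, with no overlap. Its level went from 0.579 ± 0.174 to 2.76 ± 1.53 CPM (SD, n = 3), with a log2 fold change of 2.25, a standard error of 0.49 and an edgeR adjusted p of 0.00441. Of the words of *Ifi209*, 16.9% occur in *Ifi214*, which had at most 16 counts in any library. Of those of *Ifi208*, 5.92% occur in *Ifi213* or *Ifi206*.

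*Ifi213* had 2, 2 and 0 counts in the Scr siRNA cultures and 33, 25 and 8 after knockdown, and it was left out of the test by the filter on low counts. Each control was under the floor of 3 counts used here, which is 0.0693 to 0.0831 CPM in the control libraries. Against that floor, *Ifi213* was at least 6.75-fold higher after knockdown. It passed the test when no filter was applied (edgeR adjusted p = 0.000306). This floor covers counting error only.

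*Ifi202b* encodes p202, which lacks a pyrin domain, opposes AIM2 and differs in level between inbred mouse strains. It had 36, 25 and 12 counts in the Scr siRNA cultures and 59, 45 and 20 after knockdown, and the groups overlapped because library 3 of the knockdown group was below every control but library 3. Its log2 fold change was 0.65 with a standard error of 0.47 (edgeR adjusted p = 0.257), so a change of 2-fold lies within 1 standard error of it. Of its 100-base words 0% are shared with another gene.

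*Aim2*, the DNA-sensing inflammasome receptor of the cluster, did not share the direction of the other members. It had 35, 21 and 38 counts in the Scr siRNA cultures and 32, 31 and 2 counts after knockdown. Yme1l siRNA libraries 1 and 2 lay within the range of the controls, and library 3 was far below it. The log2 fold change of *Aim2* was -0.62 with a standard error of 0.62 (edgeR adjusted p = 0.415), and the exact permutation p was 0.4. Without Yme1l siRNA library 3 it was -0.10, and without both libraries numbered 3 it was 0.03 (edgeR adjusted p = 0.944), so the sign of the *Aim2* value rests on that library. *Aim2* was at 0.808, 0.582 and 0.901 CPM in the controls and at 0.721, 0.713 and 0.0475 CPM after knockdown. In GENCODE M21, *Cadm3* overlaps *Aim2* on the other strand, and whether the counting used strand is not given in the sources used here. The joined locus *Ackr1,Cadm3* had 1 count in Yme1l siRNA library 2 and 0 counts in every other library.

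**Figure D2:**
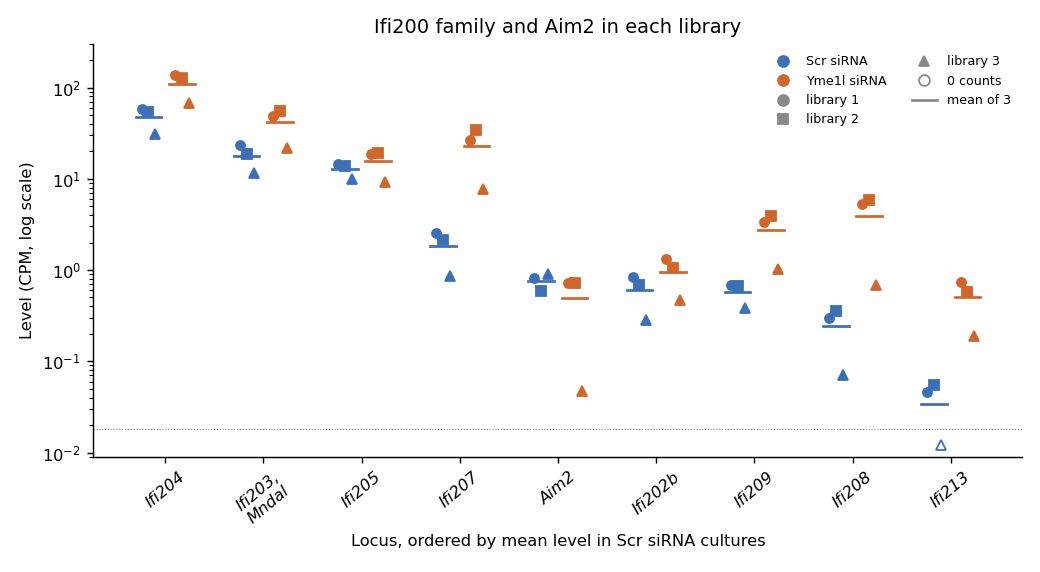
Level of each family locus in each of the 6 cultures, in CPM on a log axis, with Scr siRNA and Yme1l siRNA cultures side by side, a shape for each library number and a bar at the mean of 3. The open symbol under the dotted line stands for 0 counts (*Ifi213*, Scr siRNA library 3). The groups are apart at *Ifi204*, *Ifi207*, *Ifi208*, *Ifi209* and *Ifi213* and overlap at *Ifi203,Mndal*, *Ifi205*, *Ifi202b* and *Aim2*.

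Library 3 had the lowest family levels in both groups. In the Scr siRNA group it was lowest at 8 of the 9 loci, all but *Aim2*, and in the Yme1l siRNA group it was lowest at 9 of 9. The summed level of the family was 102, 91.4 and 54.7 CPM in the controls and 242, 249 and 109 CPM after knockdown. Knockdown library 3 was therefore close to control library 1 in summed level. *Irf7* and *Usp18*, which are interferon-induced genes outside the family, were likewise lowest in library 3, at 7.09 and 9.03 CPM in the controls, where the other control libraries had at least 19.3 and 17.1 CPM, and at 68.1 and 76.9 CPM after knockdown, where the others had at least 162 and 160 CPM. In the knockdown group library 3 also kept the most *Yme1l1*, but the *Yme1l1* levels of the controls were nearly equal, and the part of these differences in the family's values was not tested. Without both libraries numbered 3, *Ifi208*, *Ifi207*, *Ifi209*, *Ifi204* and *Ifi203,Mndal* had log2 fold changes of 4.07, 3.69, 2.40, 1.22 and 1.3, and 7 members were called higher.

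**Figure D3:**
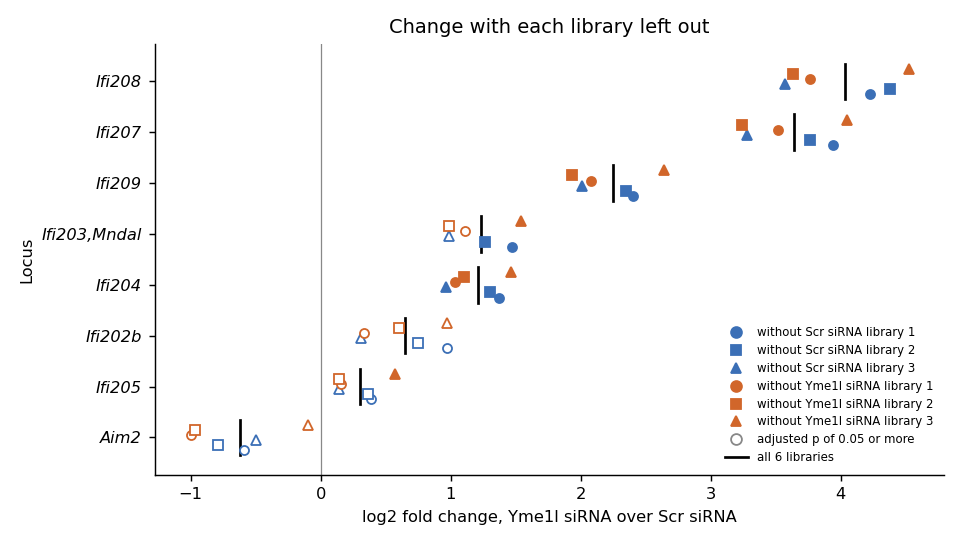
Log2 fold change of each tested member (Yme1l siRNA over Scr siRNA) with all 6 libraries, drawn as a black bar, and with each library left out in turn, drawn as a point that is open where the member was not called. *Ifi207*, *Ifi208*, *Ifi209* and *Ifi204* stay above 0 in every fit, *Ifi203,Mndal* runs from 0.99 to 1.54 as single libraries are left out, and *Aim2* runs from -1 to -0.10, with its highest value where Yme1l siRNA library 3 is left out.

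To compare levels between genes, counts were also divided by the length of the exons of each locus. On this scale (RPKM) *Ifi204* stood first in the controls with a level of 13.5 ± 4.21, followed by *Ifi205* with 3.05 ± 0.603 and *Ifi203,Mndal* with 1.73 ± 0.578 (SD, n = 3), and the ranges of these neighbours did not overlap. Below them came *Ifi207*, *Ifi202b*, *Aim2* and *Ifi209*, with mean levels from 0.539 to 0.163 RPKM and ranges that overlapped from each to the next, and then *Ifi208* with 0.0464 and *Ifi213* with 0.00495 RPKM. After knockdown *Ifi207* moved up to the second place with 6.71 ± 4.01 RPKM, although its range overlapped that of *Ifi203,Mndal* (mean 4.07 RPKM), which overlapped that of *Ifi205* (3.75 RPKM). *Ifi209* (0.777 RPKM), *Ifi208* (0.751 RPKM) and *Ifi202b* (0.558 RPKM) followed with overlapping ranges, and *Aim2* was at 0.141 RPKM. The length of the joined locus sums the exons of both genes. In the authors' pooled FPKM values, whose lengths come from their own assembly, *Ifi203,Mndal* was level with *Ifi205* in the controls, at 7.9 and 8.03.

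**Figure D4:**
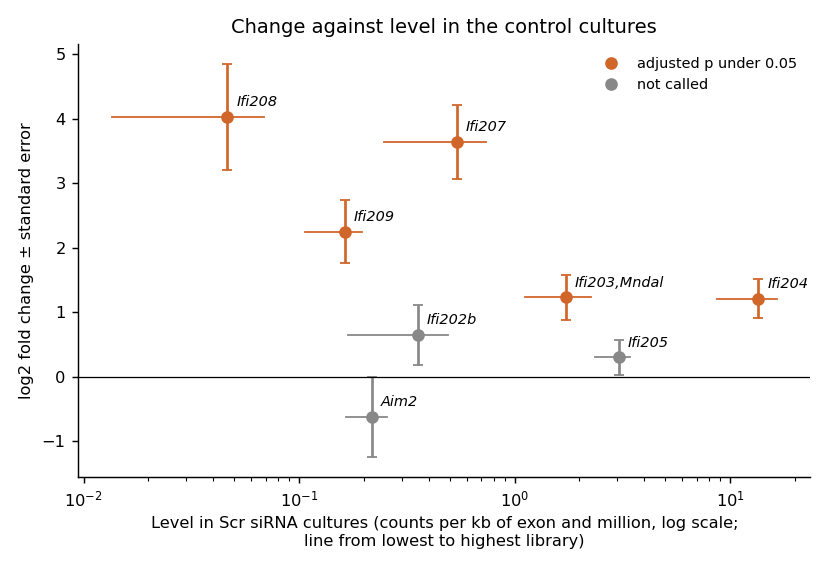
Log2 fold change of each tested member against its mean level in the Scr siRNA cultures (RPKM, log axis), with vertical bars of 1 standard error and horizontal lines from the lowest to the highest control library. The large changes lie at low levels and *Ifi204* lies at the high end with 1.21, while *Ifi202b* and *Aim2* have low levels and small or negative values, so a low level does not by itself go with a large change.

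The make-up of the family's RNA shifted between members. *Ifi204* gave 57.8% ± 1.46 of the summed member counts in the controls and 56.7% ± 5.5 after knockdown, and *Ifi203,Mndal* gave 21.5% ± 1.28 and 20.8% ± 1.26 (SD, n = 3). These shares moved by less than 1 SD. The share of *Ifi205* went from 15.8% ± 1.97 to 7.94% ± 0.382 and that of *Ifi207* from 2.13% ± 0.499 to 10.7% ± 3.35, each without overlap between the groups. *Aim2* went from 1.03% ± 0.544 to 0.21% ± 0.144, also without overlap. A share can fall without a fall of the level, and the levels of *Ifi205* and *Aim2* did not pass the test.

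Along the cluster, which spans 681 kb, the called members lay next to each other, with the members not called at either end. In the order of the chromosome, *Aim2* comes first at chr1:173350879-173466040 and was not called. *Ifi213* (chr1:173566283-173599274), *Ifi209* (chr1:173630917-173647928), *Ifi208* (chr1:173673675-173698395), *Ifi207* (chr1:173723427-173741747) and *Ifi204* (chr1:173747293-173766943) follow, and the 4 of them that were tested rose. *Ifi202b* (chr1:173962568-173982744) and *Ifi205* (chr1:174011998-174031810), which were not called, lie at the far end, beyond *Mndal* and *Ifi203*. The same stretch holds 3 more HIN-200 genes. *Ifi206* had 24, 13 and 1 counts in the controls and 324, 371 and 51 after knockdown, with a log2 fold change of 4.17, a standard error of 0.85 and an edgeR adjusted p of 0.00312. The value of *Ifi206* was 4.94 without Scr siRNA library 1 and ran down to 3.61 as other single libraries were left out. *Ifi211* had 969, 658 and 659 counts against 2228, 2158 and 1141, with 1.17, a standard error of 0.23 and an edgeR adjusted p of 0.00266. *Ifi214* was not tested, with 0, 0 and 1 counts against 10, 16 and 0. Of the words of *Ifi211*, 56.9% occur in another gene, so its value is uncertain. For *Ifi206* the share is 13.1%, most often with *Ifi208*.

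**Figure D5:**
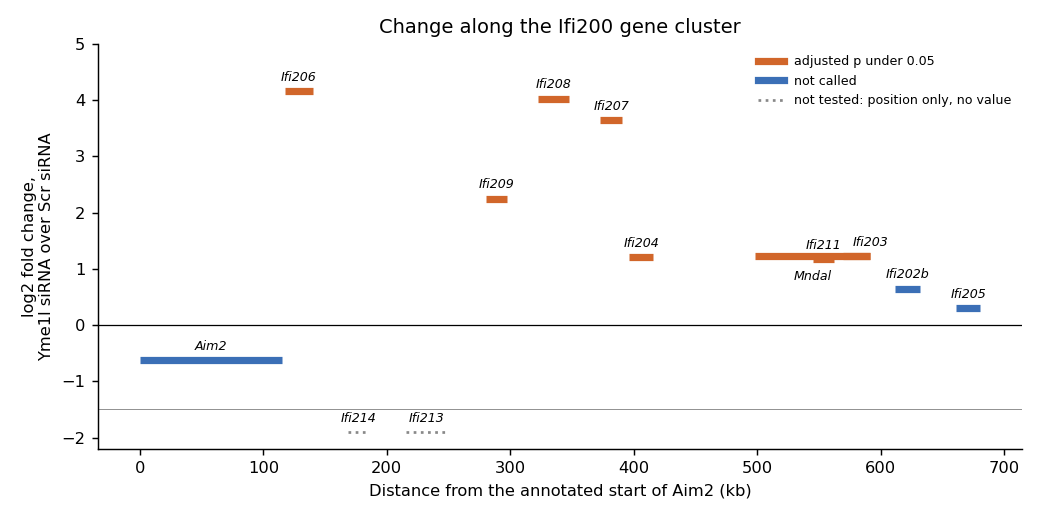
Log2 fold change of the HIN-200 loci along the cluster, Yme1l siRNA over Scr siRNA, against the distance in kb from the annotated start of *Aim2*. Each line spans a gene, dotted lines under 0 mark the places of the untested *Ifi213* and *Ifi214* and stand for no value, and the loci not called, *Aim2*, *Ifi202b* and *Ifi205*, lie at either end.

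Most genes around the family were silent in these cells. Of 65 further loci in the cluster and within 1 Mb of it, 42 had 0 counts in every library and 8 were tested. Of these 8, 4 were called higher and 2 lower, against 28.4% and 29.6% of all tested loci, with a median log2 fold change of 0.79. These values include *Ifi203-ps*, which is not a gene outside the family. *Ifi203-ps*, a pseudogene of the family, was higher by a log2 difference of 2.19 (edgeR adjusted p = 0.00839, standard error 0.55), *Slamf8*, a receptor of the SLAM family, by 2.99 (standard error 0.59, adjusted p = 0.00268) and *Gm37145* by 1.31 (standard error 0.16, adjusted p = 0.000231). *Dusp23*, a phosphatase, and *Tagln2*, an actin-binding protein, fell by 0.76 and 0.23 on the log2 scale (edgeR adjusted p = 0.014 and 0.0246). *Pigm* had a log2 fold change of 0.00. Outside the HIN-200 genes and this pseudogene, rises were thus measured at *Gm37145* and *Slamf8*. *Slamf8* passed the filter on low counts only through its knockdown cultures, so its call is given no weight.

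The partners of AIM2 were low or absent in these fibroblasts. *Pycard*, which encodes the adaptor ASC, had 0 counts in all 6 libraries, as did *Il1b*, *Nlrp1b* and *Nlrc4*. *Casp1* had 2, 2 and 0 counts in the controls and 8, 14 and 5 after knockdown, at least 2.78-fold higher than 3 counts, but was too low to be tested with the filter. Of 20 genes of the inflammasome list 10 were tested, of which 3 were called higher and 3 lower, with a median log2 fold change of 0.02. *Gsdmd*, the pore-forming gasdermin D, had 16, 13 and 14 counts in the controls and 33, 61 and 38 after knockdown, with a log2 fold change of 1.51, a standard error of 0.32 and an edgeR adjusted p of 0.00361. *Ninj1*, which ruptures the plasma membrane of dying cells, and *Gsdme*, another gasdermin, rose by 0.54 and 0.36 on the log2 scale (edgeR adjusted p = 0.00236 and 0.00729). *Il18*, a cytokine matured by caspase-1, was at 22.1, 28.0 and 24.1 CPM in the controls and at 7.44, 7.85 and 7.62 CPM after knockdown, and fell by 1.69 on the log2 scale (standard error 0.11, edgeR adjusted p = 1.2e-05). *Il1rn*, the antagonist of the interleukin-1 receptor, fell by 1.47 and *Nek7*, a kinase that NLRP3 requires, by 0.56 (edgeR adjusted p = 0.00222 and 0.000829). These counts per direction are close to the shares of all tested loci, 28.4% higher and 29.6% lower, and are no result about the list.

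The genes that make and carry the interferon signal were measured beside the family. Of 16 loci of this list 16 were tested, 10 were called higher and 2 lower, with a median log2 fold change of 0.50. Of all tested loci, 28.4% were called higher and 29.6% lower. *Ifnb1*, which encodes interferon beta, had 3, 1 and 0 counts in the controls and 37, 60 and 11 after knockdown. This is at least 11.1-fold above 3 counts per library. *Ifnb1* passed the filter on low counts only through its knockdown cultures, so its call, counted among the 10, is given no weight. *Mb21d1*, the gene of the DNA sensor cGAS, was at 17.8, 19.2 and 20.9 CPM against 56.2, 58.8 and 47.4 CPM, with a log2 fold change of 1.49, a standard error of 0.10 and an edgeR adjusted p of 1.46e-05. It rose without overlap and, unlike most of the family, without a low value in control library 3. *Usp18*, which dampens the interferon receptor, and *Irf7*, a transcription factor of interferon genes, rose by 2.99 and 2.98 on the log2 scale (standard errors 0.40 and 0.50, edgeR adjusted p = 0.000334 and 0.00114). The joined locus *Irf9,Rnf31*, which holds a gene of the ISRE-binding complex, rose by 1.19 (standard error 0.18, edgeR adjusted p = 0.000677), a size close to that of *Ifi204*. *Tbk1*, the kinase below STING, rose by 0.40 (edgeR adjusted p = 0.00102), and *Jak1* and *Tyk2*, the kinases of the interferon receptor, which were picked for naming after their values were seen, fell by 0.20 and 0.27 (edgeR adjusted p = 0.0389 and 0.0385). The family was measured beside a list in which 10 of 16 loci were called higher, 2 lower and 4 not called.

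HIN-200 proteins have also been described as binding regulators of the cell cycle and of differentiation, and a list of such partners was read. Of its 14 tested loci 3 were called higher and 7 lower, with a median log2 fold change of -0.27. Of all tested loci, 28.4% were called higher and 29.6% lower. *Id3*, an inhibitor of helix-loop-helix factors, *Rb1*, the retinoblastoma protein, and its relative *Rbl2* fell by 1.81, 1.33 and 1.13 on the log2 scale, with edgeR adjusted p-values of 4.12e-06, 1e-04 and 4.74e-05. *Id2* and *Runx2*, a factor of bone formation, fell by 0.76 and 0.43 (edgeR adjusted p = 0.00233 and 0.00189). *Myc*, a factor of cell growth, rose by 1.02 (standard error 0.09, edgeR adjusted p = 4.26e-05).

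Across the 6 libraries, the mean pattern of the tested members, with each centred on its own mean, ran at -0.33, -0.48 and -1.28 in the controls and at 1.26, 1.32 and -0.49 after knockdown on the log2 scale. Among 14489 other loci, those with the most similar pattern were *Trim12c*, a tripartite-motif gene (Pearson's r 0.999), *Loxl3* (0.996), *Gm20045* (0.995), *Itih2* (0.994) and *Tm9sf3* (0.994), over 6 libraries that fall into 2 groups. Their own differences varied widely, since *Trim12c* had a log2 fold change of 1.40 and *Tm9sf3* one of 0.15. The loci most like *Aim2* were *4732491K20Rik* (0.996), *Dcp1b* (0.994), *4930513N10Rik* (0.98), *Tmem67* (0.979) and *Apobec1* (0.976), and none of these 5 was called. These likenesses describe 6 points that share their libraries.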

How the data were processed

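RNA-Seq was performed on 6 WT MEF cultures, 3 per group. The authors prepared poly(A)-selected stranded libraries, mapped paired reads to mm10 with HISAT2 2.0.4, assembled transcripts with StringTie 1.3.3 and compared groups with Cuffdiff 2.2.1. The raw counts per locus were deposited by the authors without normalization, and the counting program is not given in the sources used here. FPKM values in a second table were deposited by the authors as 1 pooled value per group. Its fold changes, p-values and q-values are the authors' own comparison and were not used.

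From the counts, edgeR 4.0.16 (R 4.3.3) computed TMM factors and a quasi-likelihood test over 14499 loci kept by filterByExpr (minimum count 10, total 15), with Benjamini-Hochberg adjustment over all of them and a threshold of 0.05. The biological coefficient of variation was 0.131. Folds against controls of at most 3 counts are lower bounds against 3 counts per library. Libraries of a group differed beyond counting noise (chi-square per degree of freedom 9.7 to 69.9). On simulated counts for 14499 loci of this comparison, edgeR recovered 167 of 200 genes changed 2-fold, with 17 false calls. The changed genes were drawn from loci above a minimum mean count, and all other loci were left unchanged. In the data 28.4% of tested loci were called higher and 29.6% lower, so these rates describe the simulated setting only. Alternatives were DESeq2 1.42.0, limma-voom (limma 3.58.1), other scale factors, filters and thresholds, a replicate block and leaving out libraries. Whether the shared replicate numbers pair the cultures was not settled, and the main fit does not use them. Promoters came from RefSeq (GRCm38.p6), positions and shared 100-base words from GENCODE M21 on mm10. *Irf8* and some older family names matched no name of the table and are not analysed here.

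Members and lists were chosen with earlier results of these data known. The genes named were all members, *Yme1l1*, *Pycard*, *Casp1*, *Gsdmd*, *Ifnb1*, *Irf9*, up to 6 called members per list by smallest adjusted p, and the 5 loci most like the members' mean or *Aim2*. Marker genes were named to check the cell type, and other uncalled or silent genes were named after their values were seen. Some genes that this rule selects are not reported here.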

Additional observations from a re-analysis of the deposited data

How the results depend on the processing

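Over 16 alternatives, 5 of them scale factors or other tools, 308 of 317 recomputed values were rated the same. A fold change was so rated when it kept its direction and its side of the threshold. A count of called loci only had to stay within a set ratio of its main value, so such counts could move and still be rated the same. The number of members called higher ran from 4 to 7, the number called lower was 0 in each, and all loci called higher ran from 2949 to 4589. *Ifi203,Mndal* missed a threshold of 0.01 (log2 fold change 1.23, edgeR adjusted p = 0.0156) and ran from 0.99 to 1.54 as single libraries were left out. *Ifi205* ran from 0.14 to 0.57 in these fits and was 0.41 without both libraries numbered 3, where it was called. *Aim2* ran from -1 to -0.10 and was 0.03 without both libraries numbered 3. *Ifi204* ran from 0.96 to 1.46, *Ifi207* from 3.24 to 4.05, *Ifi208* from 3.57 to 4.52, *Ifi209* from 1.93 to 2.64 and *Ifi202b* from 0.31 to 0.97. The cluster neighbours called were 10 with no filter on low counts and 3 with a mean of at least 50 counts, against 6, since these settings test more or fewer loci. A mean of at least 50 counts also leaves *Ifi202b* and *Aim2* untested.

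With the replicate number as a block, 5 members were called higher and 0 lower, and 4227 loci in all were higher. *Ifi204* was at 1.20 (edgeR adjusted p = 1.81e-05), *Ifi203,Mndal* at 1.18, *Ifi205* at 0.25 and *Aim2* at -0.78, and no call of a member changed. The standard error of *Ifi204* was 0.07 with the block and 0.30 without it, and that of *Ifi207* was 0.17 and 0.57. Among the tested members only *Aim2* had a larger standard error with the block, 0.64 against 0.62. Over all tested loci, the deviations of same-numbered libraries correlated at 0.04, 0.12 and 0.19. The numbers were therefore not used as pairs in the main fit, but whether they pair the cultures was not settled. Counts limit *Ifi208*, *Ifi209*, *Ifi213*, *Ifi202b* and *Aim2* most, each with at most 38 counts in any control library.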
